A study of Schizosaccharomyces pombe with 6 samples.

Results

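The regions described here are transcribed stretches in the sparsely tiled region of a fission yeast (Schizosaccharomyces pombe) tiling array, each read on both of its strands. The tile probes of this region are numbered 147001 to 174063, are spaced more widely than the others, and odd and even numbers stand for opposite strands. A probe was counted as on when its input signal was well above background on all 6 arrays. A stretch was a run of at least 3 on probes of the same strand, in which a single off probe could be bridged. The rule found 1433 stretches, 711 on odd and 722 on even numbers, with 9655 on probes of the transcribed strand and 9398 probes of the opposite strand numbered between the first and the last of them. The sparse region holds 27063 of the 174063 tile probes, of which 11254 (41.6%) were on.

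The study purified RNA together with 3 subunits of the MTREC complex, each carrying a C-terminal Flag-TEV-protein A (FTP) tag: Red1-FTP, Mtl1-FTP and Red5-FTP, from 3 strains grown in YEA, a rich medium. All groups therefore carry a tagged protein, and no untagged strain was analysed here. Purified RNA (IP, labelled with Cy5) was hybridised against the total RNA of its own strain (the input, in Cy3), with 2 biological replicates and 1 array each per bait and no exchange of the dyes. The question put to these arrays was whether MTREC binds unstable transcripts, which is read here as the ratio on the strand opposite to a transcribed stretch.

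MTREC is a nuclear complex that hands RNA to the exosome, the main nuclear RNA-degrading machine. Red1, a zinc finger protein, and Mtl1, an RNA helicase related to Mtr4, form its core, and Red5 is a further zinc finger subunit found with the poly(A)-binding protein Pab2. Among the known substrates of this pathway are cryptic unstable transcripts, which include RNAs made antisense to genes and are short-lived in normal cells, and a group of meiotic mRNAs that are removed during vegetative growth.

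The measurement is log2 of IP over input, set so that the median of all non-control probes of an array is 0. A positive ratio means more enrichment than the median probe of that array, not enrichment over an untagged purification. Positions and genes of the probes were not given in the sources used here, so stretches are named by their first probe and nothing is said of the gene they belong to. The reading of odd and even numbers as strands was checked on the input. Mean log2 input correlated at -0.23 between probes 1 number apart, at 0.47 between probes 2 apart, at -0.20 at 3 apart and at 0.29 at 4 apart, so that neighbours in number alternate and every other probe is alike. The stretches had 3 to 29 on probes, with a median of 5. Of them, 315 had exactly 3, 691 had 6 or more and 34 had 20 or more, and 762 held at least 1 bridged off probe (1176 in all). The remaining 1599 on probes lay outside of stretches.

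The input and IP signals first show how much RNA was seen on each strand. On the transcribed strand, whose input was detected everywhere by the rule, 95.9 to 99.9% of the probes were also detected in the IP of each array. The opposite strand was detected in the input at 26.5 to 42.8% of its probes and in the IP at 38.9 to 55.6%, where detected means a signal well above background. The median input signal was 236 to 590 intensity units on the transcribed strand and 11.8 to 30.2 on the opposite strand. Of the 9398 opposite probes, 4913 (52.3%) were on in no input, 2551 (27.1%) in some and 1934 (20.6%) in all 6. Most of the last group, 1217 probes, are themselves members of a stretch on their own strand, and 550 stretches face at least 1 such probe.

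RNA from the opposite strand of the stretches had a higher ratio than RNA from the transcribed strand on every array. The transcribed strand averaged 0.07 and 0.14 on the Red1-FTP arrays, 0.14 and -0.03 on the Mtl1-FTP arrays and -0.02 and 0.12 on the Red5-FTP arrays, which gives 0.07 ± 0.08 (SD, n = 6 arrays). The opposite strand averaged 0.63 and 0.74 for Red1-FTP, 0.55 and 0.32 for Mtl1-FTP and 0.40 and 0.49 for Red5-FTP, or 0.52 ± 0.15. The lowest opposite value thus lay above the highest transcribed value. The difference within stretches was 0.45 ± 0.10, positive on 6 of 6 arrays (exact two-sided sign-flip permutation test, p = 0.03125, the smallest that 6 arrays allow; adjusted p = 0.0382 over the 11 planned contrasts of this kind). It was 0.58 for Red1-FTP, 0.38 for Mtl1-FTP and 0.39 for Red5-FTP as means of 2 arrays, and 0.46 over the arrays of slide 1 and 0.49 over those of slide 2. Slide 1 held all arrays of replicate 1, and slide 3 held only Mtl1-FTP replicate 2, with the lowest value, 0.35. The sign-flip test treats the 6 arrays as independent, though some share a slide. Odd and even stretches gave 0.49 and 0.41.

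The input that defines a stretch is also the denominator of the ratio. With stretches found only in the inputs of the other replicate number, the difference was 0.41, positive on 6 of 6 arrays. It depended on how the background was treated. After normexp, a model-based background correction that raises and compresses dim signals, it was 0.04 (adjusted p = 0.619), and with loess added 0.13. When only probes well above background in both channels were kept it was 0.29 (exact p = 0.03125, adjusted p = 0.0521).

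**Figure D1:**
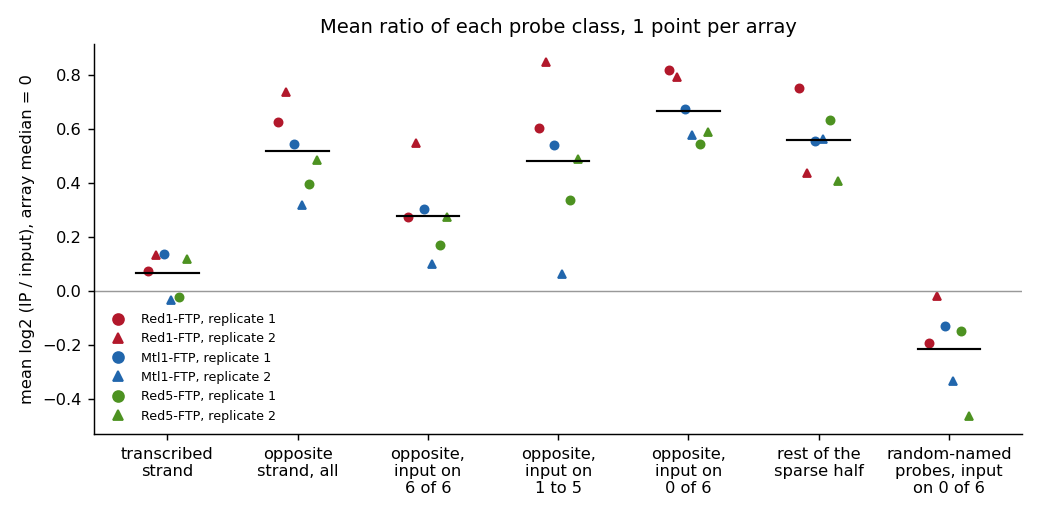
Mean log2 IP over input (vertical axis, array median at 0) of 7 probe classes, with 1 point per array (colours are baits, shapes are replicate numbers) and a line at the mean of 6 arrays. The transcribed strand sits between -0.03 and 0.14 and the opposite strand between 0.32 and 0.74, while the rest of the sparse region lies between 0.41 and 0.75.

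Opposite probes were next split by their detection in the input, which is also the denominator of the ratio, so that the order of these classes is partly fixed by the split. Opposite probes with no detected input averaged 0.67 ± 0.12, those detected in some inputs 0.48 ± 0.27, and those detected in all 6 inputs 0.28 ± 0.15. Against the transcribed strand of the same stretches the first class stood 0.64 ± 0.10 higher, and the last 0.20 ± 0.09 higher, each on 6 of 6 arrays (exact sign-flip test, p = 0.03125, adjusted p = 0.0382). Most probes of the last class are members of a stretch on their own strand, and with such members left out its difference was 0.38. Transcribed probes were picked for detected input and the first class for its absence, so the direction of that contrast is also partly fixed. Where both strands were detected, they could be compared at like abundance, though not at like run length. Within 5 bins of like input, taken from the other replicate number, the 717 detected opposite probes that belong to no stretch stood 0.37 ± 0.15 above the transcribed probes, on 6 of 6 arrays with a range of 0.26 to 0.66 (exact p = 0.03125, adjusted p = 0.0382). The highest of these 6 values, 0.66, came from Red1-FTP replicate 2. These detected opposite probes lie in runs of fewer than 3 on probes, and the transcribed ones in runs of 3 or more. The transcribed ratio itself was higher in short stretches, 0.29 at 3 on probes against -0.23 at 10 to 29. The part of run length in this contrast was not tested. For probes without detected input the denominator is only a bound, and after normexp their difference from the transcribed strand was -0.03, below the 0.18 of the probes detected in all inputs. With loess added these were 0.15 and 0.16, so the order of these classes was not kept.

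A high ratio was not particular to the strand opposite of a stretch. The 8235 other probes of the sparse region, which lie in no stretch on either strand, averaged 0.56 ± 0.13, with 0.75 and 0.44 for Red1-FTP, 0.56 and 0.56 for Mtl1-FTP and 0.64 and 0.41 for Red5-FTP. Taken over probes, the 8181 opposite probes that are not themselves on probes of a stretch differed from these others by 0.02 ± 0.22. They were higher on 3 of 6 arrays (exact p = 0.906, a contrast added after the values were seen). Some of the 8181 are bridged off probes, which the others leave out. Among probes without detected input the opposite strand averaged 0.64 ± 0.12 and the rest 0.61 ± 0.15. Their difference was 0.03 ± 0.19 and ran from -0.16 to 0.32 over the arrays (exact p = 0.719). Probes whose name marks them as random sequence, 1058 of which were detected in no input, averaged -0.46 to -0.02 per array. Opposite probes without input stood 0.86 ± 0.13 above these, on 6 of 6 arrays (exact p = 0.03125, adjusted p = 0.0417 over 8 added contrasts). Neither side of this contrast had a detected input, and it was not repeated under normexp or any other treatment of the background.

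A part of the opposite probes without detected input was detected in the purifications. Of the 4913 opposite probes on in no input, 419 (8.53%) were well above background in the IP on all 6 arrays and 63.6% on none. Over the rest of the sparse region the corresponding share was 8.72% (411 of 4714). For such probes the input signal has no measured level, so the IP was set against the higher of the probe's own input signal and the lowest input signal that counted as well above background on that array, 33.8 to 62.9 units. Since the probes were picked as detected in the IP and not in the input, the resulting values only describe them. The median was at least 3.16-fold over the array median for the 419 probes and at least 3.49-fold for the 411 of the rest. The 419 probes were spread over 341 stretches, and only 10 stretches held 3 or more.

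The difference between the strands was larger in longer and in more abundant stretches, in different ways on each strand. The transcribed ratio averaged 0.29 ± 0.08 in stretches of 3 on probes, 0.17 ± 0.06 in those of 4 to 5, -0.01 ± 0.12 in those of 6 to 9 and -0.23 ± 0.22 in those of 10 to 29. Stretches of 3 on probes exceeded those of 6 or more by 0.39 ± 0.23, between 0.10 on Red1-FTP replicate 2 and 0.73 on Red5-FTP replicate 1 (exact p = 0.03125, adjusted p = 0.0382). The opposite strand of the same stretches had 0.50, 0.48, 0.54 and 0.56. The same contrast was -0.05 ± 0.08 there (exact p = 0.188), between -0.19 and 0.04 over the arrays. With medians in place of means the contrast was 0.13 on the opposite strand, positive on 6 of 6 arrays (exact test, adjusted p = 0.0382), and 0.31 on the transcribed strand, which then missed the threshold (adjusted p = 0.0688). Strand differences thus ran from 0.21 ± 0.15 in the shortest to 0.79 ± 0.13 in the longest class. Length counts probes with detected input, the denominator of the ratio, and was not separated from abundance. With stretches found in the inputs of the other replicate number, short stretches exceeded long ones by 0.38 on the transcribed strand.

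Stretches were also put in 4 groups of rising input, read in the other replicate. The transcribed ratio averaged 0.25 ± 0.07 in the dimmest group and 0.09, -0.03 and -0.05 in the next 3. The dimmer stretches, split at the median, exceeded the brighter by 0.21 ± 0.06 on 6 of 6 arrays (exact p = 0.03125, adjusted p = 0.0382). The opposite strand ran the other way, at 0.26, 0.41, 0.55 and 0.86 ± 0.23. The brighter stretches exceeded the dimmer by 0.37 ± 0.08 there, on 6 of 6 arrays (exact p = 0.03125, adjusted p = 0.0417, added after the values were seen). In the dimmest group the strands differed by 0.01 ± 0.07, positive on 2 of 6 arrays, and in the brightest by 0.90 ± 0.18. Across the 1433 stretches the mean ratios of both strands correlated at r = 0.20 (Spearman 0.18), a description over stretches of the same arrays.

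**Figure D2:**
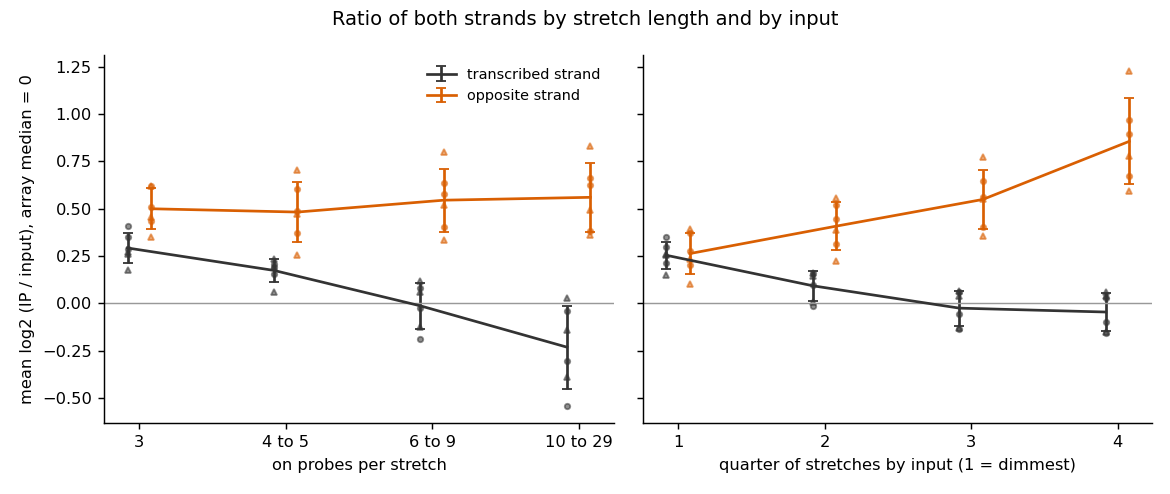
Mean log2 IP over input of the transcribed (dark) and opposite strand (orange) by the number of on probes (left) and by group of input from the other replicate, 1 being the dimmest (right). Points are the 6 arrays, bars the SD. The transcribed strand falls from 0.29 to -0.23 with length while the opposite strand stays at 0.48 to 0.56, and with input the opposite strand climbs from 0.26 to 0.86.

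The ratio also varied along the stretches. Side A was taken as the higher-numbered side of odd and the lower-numbered side of even stretches, the side on which facing stretches lay further apart. From an odd to the next even stretch the 421 gaps had a median of 6 probes, and from an even to the next odd one the 331 gaps had a median of 2. Which side is the 5′ end was not given. In the 691 stretches of 6 or more on probes, the transcribed ratio in 5 bins counted from side A was 0.11 ± 0.11, -0.09 ± 0.20, -0.18 ± 0.20, -0.22 ± 0.21 and -0.12 ± 0.11. The outer part at side A exceeded that at side B by 0.22 ± 0.04, between 0.17 and 0.28 on the 6 arrays (exact p = 0.03125, adjusted p = 0.0382). Mean log2 input was 8.61 in the first bin and 8.77 to 8.88 in the other 4, and its part in the difference was not tested. On the opposite strand the bins were at 0.61, 0.58, 0.52, 0.57 and 0.46. The ends differed by 0.12 ± 0.03 on 6 of 6 arrays (exact p = 0.03125, adjusted p = 0.0382), a direction that turned to -0.09 when no off probe was bridged.

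**Figure D3:**
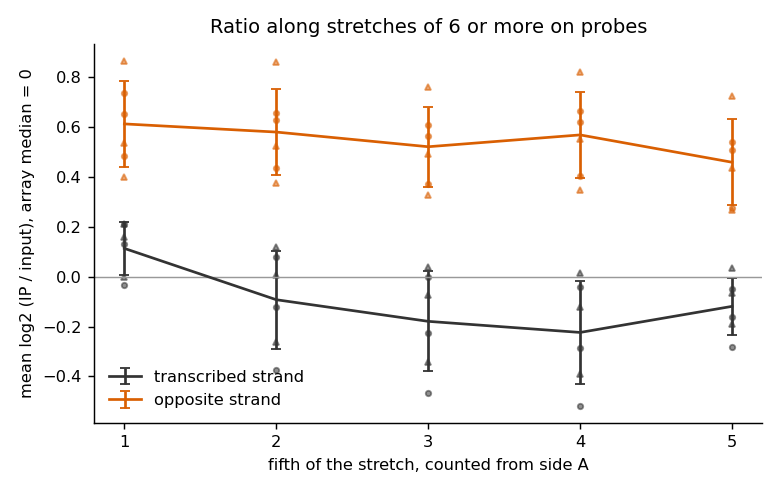
Mean log2 IP over input in 5 bins along the 691 stretches with 6 or more on probes, counted from side A. Points are the 6 arrays, bars the SD. The transcribed strand (dark) is highest in the first bin, at 0.11, and lowest in bin 4, at -0.22, and the opposite strand (orange) lies above it throughout.

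Single off probes bridged within stretches averaged 0.30 ± 0.12 against 0.15 ± 0.05 for the on probes beside them. The difference of 0.15 ± 0.11 was positive on 5 of 6 arrays (exact p = 0.0625, adjusted p = 0.0688) and turned to -0.15 after normexp.

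Where both strands of a region formed stretches, the RNA with the lower input had the higher ratio on average. There were 295 pairs of overlapping stretches on opposite strands, in which both RNAs were detected in all inputs. These contrasts were added after the values were seen. The strand with the lower input, judged on the other replicate number, averaged 0.28 ± 0.07 and its partner -0.01 ± 0.09. Their difference of 0.29 ± 0.05 ran from 0.22 to 0.36 over the 6 arrays (exact p = 0.03125, adjusted p = 0.0417). It stayed between 0.24 and 0.38 under each of the 5 other treatments of signal and dim probes tried for it, normexp included. Over all transcribed stretches the dimmer likewise exceeded the brighter, by 0.21. The shorter stretch of a pair averaged 0.25 ± 0.05 and the longer 0.01 ± 0.12 (266 pairs of unequal length, difference 0.24 ± 0.09, exact p = 0.03125, adjusted p = 0.0417). In 71 pairs a stretch lay wholly inside one of the other strand. The inner stretch averaged 0.30 ± 0.10 and the outer 0.14 ± 0.13, a difference of 0.17 ± 0.08 (exact p = 0.03125, adjusted p = 0.0417). The single pairs varied far more than this mean, from -2.25 to 2.74, and the inner was above the outer in 38 of the 71.

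The strands were next tested stretch by stretch with limma, on the mean of the 3 baits, with Benjamini-Hochberg adjustment over both strands of all stretches. At an adjusted p under 0.05 the transcribed strand was enriched relative to the array median in 414 of 1433 stretches and depleted in 339. The opposite strand was enriched in 843 and depleted in 104. Over both strands together 43.9% were enriched and 15.5% depleted. Of the enriched ones, 362 transcribed and 725 opposite strands were above 0 on 6 of 6 arrays. The opposite strand was above the transcribed strand in 851 stretches (59.4%) and below it in 242 (16.9%), with 728 and 174 of these of the same sign on 6 of 6 arrays. The counts on each strand rest on where 0 is set. With arrays centred on the mean of the probes, which lies 0.23 to 0.42 above the median, 201 transcribed strands were enriched and 790 depleted, and 555 and 352 opposite strands. Of the 414 stretches enriched on the transcribed strand, 260 (62.8%) were enriched on the opposite strand as well, as were 426 (62.6%) of those called neither way and 157 (46.3%) of the 339 depleted ones. Over all stretches the share was 58.8%.

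The same fit on single probes gives the background. Over all 174063 tile probes 27.0% were enriched and 14.1% depleted. Among transcribed probes of the stretches these shares were 17.1% and 25%, among opposite probes 33.0% and 9.30%, and in the rest of the sparse region 30.9% and 8.54%. Of the opposite probes without detected input 32.6% were enriched and 1.57% depleted, against 29.6% and 2.14% of such probes in the rest of the sparse region. By length, 37.8% of the stretches of 3 on probes were enriched on the transcribed strand and 15.6% depleted, against 14.1% and 39.8% of those of 10 to 29. On the opposite strand 49.8% of the shortest and 72.1% of the longest stretches were enriched, where mean ratios were 0.50 and 0.56. Longer stretches average over more opposite probes, whose part in these shares was not tested.

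**Figure D4:**
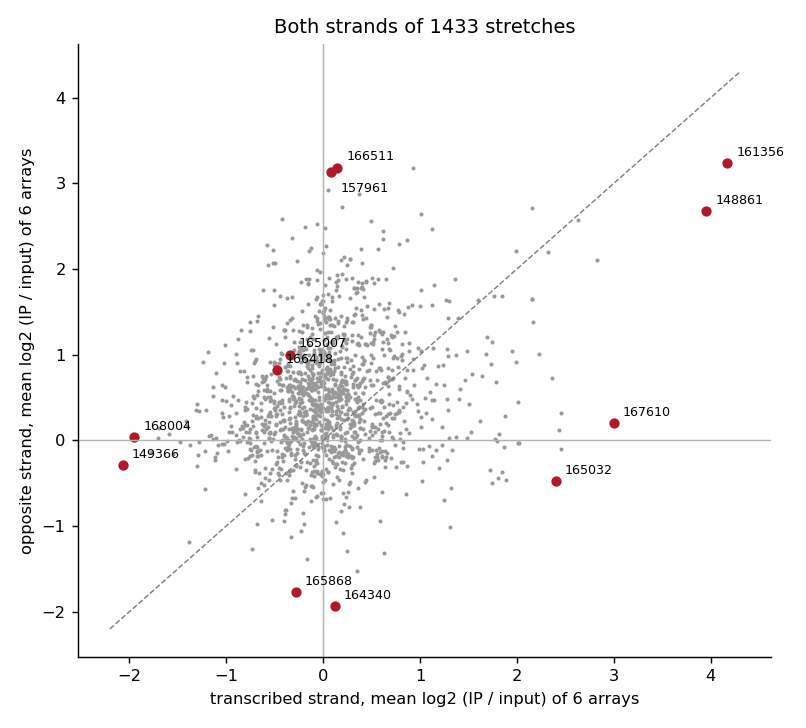
Mean log2 IP over input of 6 arrays on the transcribed (horizontal) and opposite strand (vertical) of each of 1433 stretches. Red points with the number of the first probe are the stretches named in the text, and the dashed line marks equal ratios. The opposite strand was above the transcribed strand in 851 stretches by limma, and sp40c_161356 is far out on both axes.

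The stretches with the extreme values show RNAs that differed most from the average. Ranks chose these stretches, so their values are given as a description. In sp40c_161356, 5 even probes up to sp40c_161364, the transcribed ratio was 4.60 and 4.95 for Red1-FTP, 4.09 and 3.92 for Mtl1-FTP and 2.46 and 5.01 for Red5-FTP. This was the highest mean of all stretches, 4.17 (SE 0.29, limma adjusted p = 3.78e-05), with Red5-FTP replicate 1 lowest. Its 4 opposite probes, none of them detected in any input, had measured ratios of 3.23, 4.32, 3.40, 3.08, 1.67 and 3.71 in the same order. Their mean of 3.23 has an input below detection on every array, was carried by a probe at 6.69 with the others at 1.61, 1.36 and 3.28, and was 1.54 after normexp and 1.48 with loess added. The probe at 6.69 was well above background in all IPs and at least 45.3-fold on the bound used above. The median IP signal of the transcribed probes was 2698 to 15749 units per array, against 304 to 611 in the input. The neighbouring on probes of the other strand, just outside of the stretch, lay between -0.41 and 0.32.

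Stretch sp40c_148861, 3 odd probes up to sp40c_148865, came next on the transcribed strand. Its ratios were 4.06 and 4.85 for Red1-FTP, 4.16 and 3.93 for Mtl1-FTP and 3.26 and 3.45 for Red5-FTP, a mean of 3.95 (SE 0.12, limma adjusted p = 5.90e-06). All 6 arrays were thus more than 3 log2 units above the median. Its 2 opposite probes stood at 2.91 and 4.49, 2.97 and 3.31, and 0.93 and 1.44, a mean of 2.67, but were detected in no input, and in 58.3% of the readings of the IP.

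At the other extreme stood sp40c_149366, with 27 even on probes up to sp40c_149422. Its transcribed ratio was -2.60, -1.38, -1.14, -2.47, -2.96 and -1.84, in the order Red1-FTP, Mtl1-FTP and Red5-FTP with 2 arrays each. The mean of -2.07 (SE 0.24, limma adjusted p = 0.00036) was the lowest of all. Its median input was 209 to 639 units over the arrays and its median IP signal 53.7 to 183. The opposite strand averaged -0.29. After normexp the transcribed mean was -1.18. Without bridging, the stretch starting at the same probe ends before the off probe 20 numbers on, and this first part had -1.21. Stretch sp40c_168004, 10 on probes, followed with -2.06 and -1.56, -1.58 and -2.39, and -2.33 and -1.77, a mean of -1.95 (SE 0.15, limma adjusted p = 4.75e-05). Its opposite strand averaged 0.04.

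Other stretches were extreme on the opposite strand alone. In sp40c_166511, 3 odd probes up to sp40c_166515, the transcribed ratio was 0.15, between -0.15 and 0.50 over the arrays. Its 2 opposite probes stood at 3.19 and 3.45 for Red1-FTP, 3.12 and 3.32 for Mtl1-FTP and 3.25 and 2.76 for Red5-FTP. The mean was 3.18 (SE 0.11, limma adjusted p = 5.90e-06), and it fell to 1.34 after normexp and 1.11 with loess added, where the strand difference was 1.15 and 0.94. Both opposite probes were off in all inputs and on in all IPs, and their bound was at least 3.59-fold. The transcribed median signal was 1030 to 3803 units in the input and 1017 to 4384 in the IP. On the opposite strand it was 10.8 to 33.8 units in the input and 75.6 to 185 in the IP.

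Stretch sp40c_157961, 4 odd probes up to sp40c_157967, had the largest strand difference, 3.05 and 3.31, 3.20 and 2.95, and 3.33 and 2.42, a mean of 3.04 (SE 0.14, limma adjusted p = 9.77e-08). Its transcribed strand had a median input of 3707 to 9687 units and a ratio of 0.09. One of its 3 opposite probes was detected in all inputs as well, with a log2 input of 5.95 to 8.43, and had a ratio of 4.16 ± 0.68 (SD, n = 6). The other 2 had 2.79 ± 0.35 and 2.43 ± 0.49. The strand difference was 1.86 after normexp and 1.76 with loess added.

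The largest differences of the other sign, and the lowest opposite strands, came from overlapping stretches in which the opposite strand was itself transcribed. Stretch sp40c_165032, 4 even on probes up to sp40c_165040, had a transcribed ratio of 2.36 and 2.27 for Red1-FTP, 2.23 and 2.76 for Mtl1-FTP and 2.57 and 2.20 for Red5-FTP, a mean of 2.40 (SE 0.11, limma adjusted p = 1.54e-05). It lies inside sp40c_165007, the longest odd stretch, whose on probes at these numbers averaged -0.47, and the difference was -2.87. The inner RNA had a median input of 130 to 356 units, against 1149 to 2194 on the outer strand. In the IP it reached 578 to 2901 units, against 598 to 1824. In sp40c_167610, 3 even on probes up to sp40c_167616, the transcribed ratio was 3.0 and the opposite 0.20. The median input was 211 to 390 units on the transcribed and 8422 to 18926 on the opposite strand.

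The same arrangement was seen in sp40c_164340, where the inner, even stretch with a ratio of 0.12 lies inside sp40c_164323, a stretch of 20 odd on probes. Its opposite probes, all 3 of which belong to that longer stretch, were at -2.22, -1.33, -1.75, -2.61, -2.39 and -1.29, with a mean of -1.93 (SE 0.20, limma adjusted p = 0.000175). In sp40c_165868 the 4 opposite probes belong to sp40c_165827, of 24 on probes, and had a mean of -1.77 (SE 0.18, limma adjusted p = 0.000164) against -0.28 on the even strand.

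The longest stretch of each strand had 29 on probes. In sp40c_165007, odd, up to sp40c_165071, the transcribed ratio was -0.48 and -0.19, -0.28 and -0.53, and -0.47 and -0.10 (mean -0.34, SE 0.10, limma adjusted p = 0.022). The 32 opposite probes averaged 1.0, 1.19, 0.92, 0.90, 1.02 and 0.98, above the transcribed strand on each array. Of these, 14 were off in all inputs and 8 were members of other stretches. After normexp the opposite mean was 0.53. Without bridging, the stretch starting at the same probe ends before the off probe 12 numbers on, and so covers only the first part of this one. It had -0.41 on the transcribed and 0.16 on the opposite strand, neither of which passed (limma adjusted p = 0.0549 and 0.535). The transcribed strand was also no longer called without Red1-FTP replicate 1 (-0.29), Mtl1-FTP replicate 2 (-0.30) or Red5-FTP replicate 1 (-0.28). In sp40c_166418, even, up to sp40c_166478, the transcribed strand averaged -0.48 (SE 0.12, limma adjusted p = 0.012) and the 30 opposite probes 0.82 (SE 0.09, limma adjusted p = 0.00023). Without Mtl1-FTP replicate 2 the transcribed value was -0.40 and no longer passed, and after normexp both strands were nearer to 0, at -0.26 and 0.37. In sp40c_165007 on probes of the transcribed strand ran from -1.43 to 2.09 and opposite probes from -0.96 to 4.42.

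**Figure D5:**
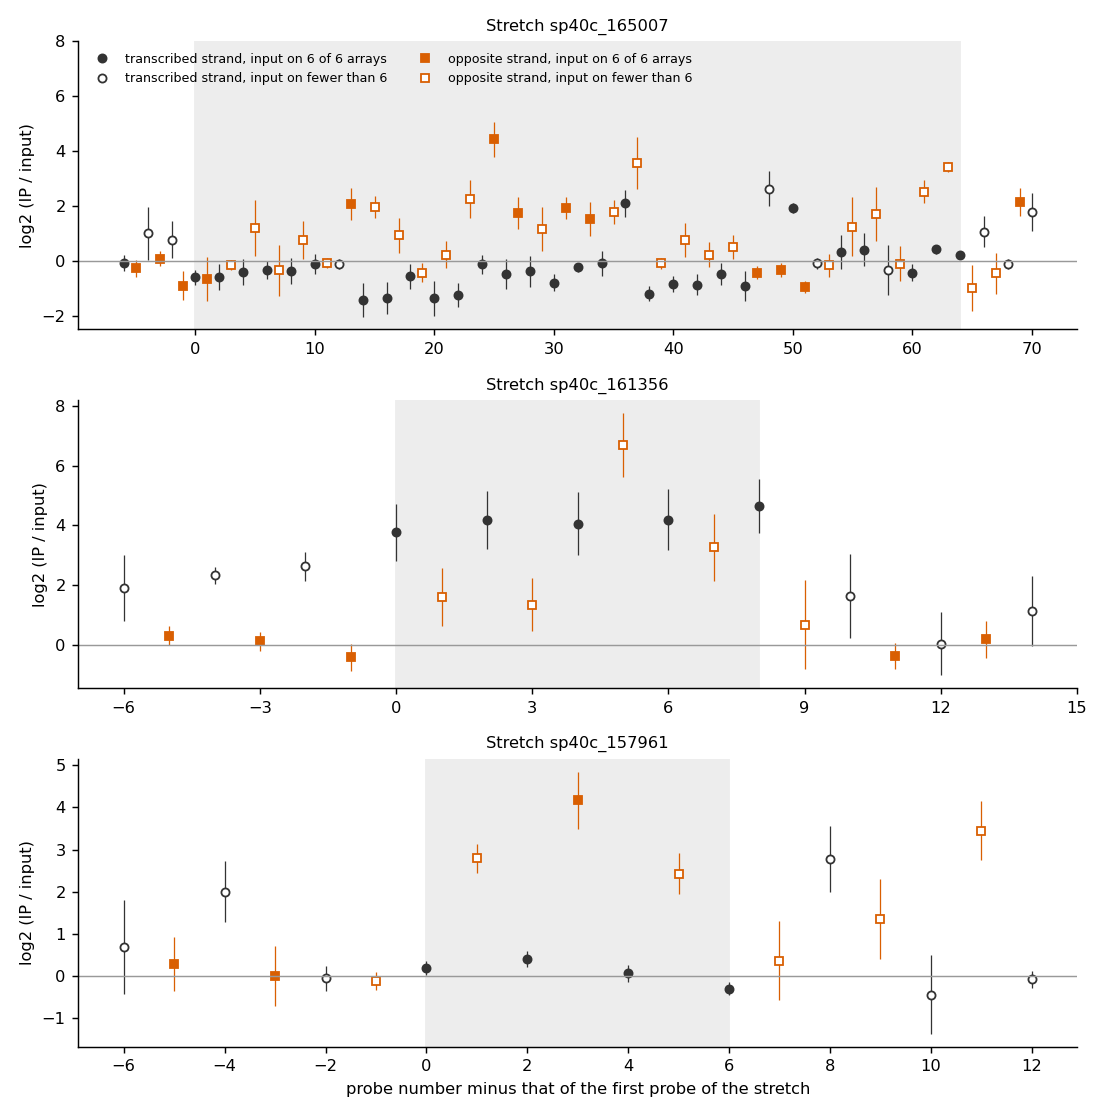
Log2 IP over input of single probes (mean and SD of 6 arrays) along 3 stretches shaded in grey, against the probe number counted from the first probe. Dark circles are the transcribed and orange squares the opposite strand, filled where the input was on in all 6 arrays. In sp40c_165007 the opposite strand reaches 4.42 within the nested stretch, in sp40c_161356 both strands are high, and in sp40c_157961 the opposite strand alone is.

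The mean of the opposite strand was 0.63 and 0.74 for Red1-FTP and 0.32 to 0.55 for the other baits, without overlap, and the strand difference was 0.55 and 0.60 against 0.35 to 0.42. These differences between baits in the mean over stretches were not tested. Across stretches, arrays of the same bait correlated at r = 0.784 to 0.879 on the transcribed and 0.762 to 0.821 on the opposite strand. Arrays of different baits correlated at 0.580 to 0.884 and 0.632 to 0.854. These are correlations over stretches that share array and probes. With limma, 0 of 2866 stretch strands (0%) passed an adjusted p of 0.05 for any pair of baits. Before adjustment, 165 had a p below 0.05 for Red1-FTP against Mtl1-FTP, 175 for Red1-FTP against Red5-FTP and 144 for Mtl1-FTP against Red5-FTP. With the slide as a fixed block, 2 passed for Red1-FTP against Red5-FTP, whose arrays of the same number share a slide. With 2 arrays per bait, the low counts do not show that the baits recovered the same RNAs.

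The largest difference between Red1-FTP and Mtl1-FTP on each strand was in sp40c_154012, 8 even on probes up to sp40c_154028, a stretch singled out after its values were seen. Its transcribed ratio was 2.71 and 3.15 for Red1-FTP, 1.01 and 1.28 for Mtl1-FTP and 0.61 and 1.37 for Red5-FTP. The opposite strand was at 2.42 and 2.91, 0.23 and 0.59, and 0.29 and 0.82. Both Red1-FTP arrays were above all the other 4 on both strands, but no pair of baits passed (limma adjusted p = 0.202 to 0.283 for the opposite strand of Red1-FTP against Mtl1-FTP and Red5-FTP).

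Finally the densely tiled region was thinned to every 7th probe and read by the same rule, which gave 1126 stretches, again with a median of 5 on probes. There the transcribed strand averaged 0.04 ± 0.10 and the opposite strand 0.53 ± 0.17. The strand difference of the sparse region was smaller by 0.035 ± 0.004 on 6 of 6 arrays (exact p = 0.03125, adjusted p = 0.0382), against a difference of 0.49 in the thinned dense region. The test covers the spread between arrays that read the same stretches, not the spread between stretches. Over the sparse stretches the quartiles of the strand difference were -0.06 and 0.99. Of the dense probes 40.7% were on.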

How the data were processed

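The authors deposited 1 scanner table per array, made with Agilent Feature Extraction 10.7.3.1 from custom Agilent arrays. The intensities in these deposited tables had their background subtracted and their dyes normalized by that software. The authors' value table, also deposited and used as an alternative, holds log2 ratios set to 0 where the software's p was 0.05 or more. Flags of the software mark signals well above background and outliers. Per spot, log2 of the processed Cy5 over Cy3 signal was taken, centred on the array median of non-control spots, with outlier spots (2 to 9 tile probes per array) left out and no further normalization. Stretch values are means over probes and class values means over stretches, 1 per array. Contrasts were tested with exact two-sided sign-flip tests over 6 arrays, and single stretches and probes with limma 3.58.1 in R 4.3.3. Array numbers limit the precision. The finding of stretches, the strand difference, the end contrast of the transcribed strand and limma's calls on the mean of the baits were run on simulated data. The other steps were not. Stretches are named by rule: the 2 highest and 2 lowest on each strand and in the difference, those with the largest difference between baits past the threshold (none passed), and the longest per strand. Stretches that overlap a named one are named with it, and sp40c_154012 was added after its values were seen. Members, lists and rules were chosen with earlier results of these data known. No probe was matched to a gene or a sequence.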

Additional observations from a re-analysis of the deposited data

Results flagged for a closer look

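In sp40c_168004 the opposite strand was below 0 on both Red5-FTP arrays (-0.37 and -0.16) and above 0 on both Red1-FTP arrays (0.02 and 0.87), a difference of 0.71. The test of this difference across all stretches did not pass (limma adjusted p = 0.721).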

How the results depend on the processing

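The planned contrasts kept their direction and their side of 0.05 under most alternatives, and the exceptions follow. Centring the arrays on another value, such as the mean of the probes, shifts both sides of a contrast alike. Such alternatives could not change the planned contrasts. After normexp with median centring the strand difference was 0.042, opposite probes without input minus transcribed -0.034, short minus long on the opposite strand 0.015, bridged minus on -0.15 and opposite minus rest -0.026. In 462 stretches the opposite strand was then above the transcribed, and 1755 opposite probes were depleted. With normexp and loess, bridged minus on was -0.067, opposite minus rest -0.031 and the same without input -0.017. In the value table these were 0.23, -0.033 and -0.036. Before dye normalization, short minus long on the opposite strand was 0.0044, 1988 opposite probes were depleted and 1 stretch strand differed between Red1-FTP and Mtl1-FTP.

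With probes well above background in both channels only, the strand difference was 0.29, opposite with input minus transcribed 0.23, the same at like input 0.38, end A minus B 0.22 on the transcribed and 0.16 on the opposite strand, short minus long on the transcribed strand 0.39, dim minus bright 0.22 and sparse minus dense -0.044, with adjusted p of 0.0521 or 0.0781. Bridged minus on was -0.029, and 414 opposite strands were enriched, 181 depleted and 397 above the transcribed. Opposite probes without input give no value there. Stretches from the other replicate gave 0.19 for bridged minus on, and slide 2 gave 0.0069. Without bridging, end A minus B on the opposite strand was -0.089 and short minus long there 0.072. Medians gave 0.31 for short minus long on the transcribed strand, which lost its call, and 0.13 on the opposite strand, which gained one. The causes were not tested.

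Centred on the mean, 201 transcribed strands were enriched and 790 depleted, 555 and 352 opposite strands, 938 and 4680 transcribed probes, and 3005 opposite probes were depleted. Past a log2 ratio of 1, 98 transcribed strands were enriched and 43 depleted, 302 and 12 opposite strands, with 348 opposite above and 62 below the transcribed. Among stretches of at least 5 on probes, 202 transcribed strands were enriched, 39 opposite strands depleted and 101 opposite below the transcribed. With each array left out in turn, transcribed strands depleted ranged from 224 to 341 and opposite strands depleted from 61 to 118. Both were lowest without Mtl1-FTP replicate 2, and opposite strands depleted were 65 without Red1-FTP replicate 1 and 68 without Red5-FTP replicate 1. Probes ranged from 1037 to 1467 enriched and 878 to 2385 depleted on the transcribed strand, and from 2235 to 3075 enriched and 364 to 996 depleted on the opposite strand. Alternatives for single probes and for the added contrasts were chosen after seeing the data. The added contrasts against random-named probes had no alternatives.

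With the replicate number as a block (replicate block), 0 stretch strands differed between any pair of baits. Deviations of same-numbered arrays correlated at 0.57 between Red1-FTP and Red5-FTP, where equal numbers share a slide, and at -0.39 and -0.42 between Mtl1-FTP and these baits. The numbers therefore do not pair the arrays of all baits. With the slide as a fixed block, 2 differed between Red1-FTP and Red5-FTP.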
